A study of Mus musculus with 2 samples.

Results

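The genes described here encode the presynaptic vesicle release machinery: the SNARE proteins, calcium sensors, vesicle proteins and active zone scaffolds through which a nerve terminal releases transmitter. They were chosen by symbol from a list of 32 genes, and all 32 were found among the 33696 genes of both count matrices. The matrices come from 2 droplet libraries (10x Genomics 3′ chemistry, in which each captured RNA molecule carries a unique molecular identifier, UMI) of mice labelled Shank3-/-, which lack a scaffold protein of the postsynaptic side. The vehicle library (label MOCK) serves as control. The fluconazole library is from animals that drank water with this azole antifungal, an inhibitor of fungal sterol demethylation, for 2 weeks. Both libraries carry the Shank3 deletion, so neither is a wild-type reference, and the deletion cannot be checked against one. The design text names prefrontal cortex and a mix of cells and nuclei, whereas the sample labels say brain and the extraction text describes nuclei only, so droplets are called barcodes. The number of mice in each library is not given in the sources used here.

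In a resting terminal, vesicles are tethered by Rab3 proteins, RIMs and the scaffolds bassoon and piccolo, then primed by Munc13 proteins into a state in which the vesicle SNARE synaptobrevin (Vamp) meets syntaxin and Snap25 on the plasma membrane. Complexins hold these complexes ready, and calcium binding to a synaptotagmin sets off fusion, after which the ATPase Nsf takes the complexes apart. Many of these proteins come in paralogs that neuron types use in different combinations, and the fast sensor Syt2 of parvalbumin interneurons is a textbook example.

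Promoter windows are shown for Unc13c, the 1 member at least 1.2-fold lower in the fluconazole library in glutamatergic neurons, and for 4 of the 5 that were at least 1.2-fold higher. Each is the stretch upstream of an annotated start that holds no exon of GENCODE vM21 or RefSeq, written 5′ to 3′ on the gene's strand from RefSeq's GRCm38.p6 table. Capitals mark the GC box GGGCGG, which reads CCGCCC when it lies on the other strand, and TGACG, a part of the cyclic AMP response element.
Stx1a, chr5:135023232-135023481, plus strand: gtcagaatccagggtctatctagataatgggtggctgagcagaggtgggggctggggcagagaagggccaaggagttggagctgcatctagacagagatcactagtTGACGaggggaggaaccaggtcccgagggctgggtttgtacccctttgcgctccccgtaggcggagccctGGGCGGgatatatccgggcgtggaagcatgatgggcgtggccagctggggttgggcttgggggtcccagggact
Cplx2, chr13:54302405-54302555, plus strand: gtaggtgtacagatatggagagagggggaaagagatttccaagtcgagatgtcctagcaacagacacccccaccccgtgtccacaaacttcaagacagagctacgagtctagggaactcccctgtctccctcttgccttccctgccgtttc
Sv2c, chr13:96132578-96132827, minus strand: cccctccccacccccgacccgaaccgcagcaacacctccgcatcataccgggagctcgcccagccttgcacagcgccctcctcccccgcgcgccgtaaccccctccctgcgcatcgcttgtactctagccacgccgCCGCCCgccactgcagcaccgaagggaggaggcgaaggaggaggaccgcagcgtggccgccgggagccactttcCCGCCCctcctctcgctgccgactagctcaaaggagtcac
Rims3, chr4:120854549-120854778, plus strand: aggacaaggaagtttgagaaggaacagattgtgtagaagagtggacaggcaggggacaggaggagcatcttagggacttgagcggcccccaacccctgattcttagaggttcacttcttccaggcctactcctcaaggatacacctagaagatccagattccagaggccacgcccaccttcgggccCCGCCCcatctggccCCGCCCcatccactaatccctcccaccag
Unc13c, chr9:73969038-73969287, minus strand: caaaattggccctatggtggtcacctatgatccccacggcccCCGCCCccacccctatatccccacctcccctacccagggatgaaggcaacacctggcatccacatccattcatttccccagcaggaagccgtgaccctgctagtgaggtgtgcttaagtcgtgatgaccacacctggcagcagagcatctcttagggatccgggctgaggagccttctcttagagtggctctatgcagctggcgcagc
The windows of Cplx2 and Unc13c lie before a start inside the gene's full RefSeq span. The stretch shown for Stx1a has 1 GC box and 1 TGACG, those of Sv2c and Rims3 have 2 GC boxes each, that of Unc13c has 1, and that of Cplx2 has neither motif. The stretch of Bsn, the remaining higher member, is 111 bases long, is not shown and also has neither motif. Over the full windows, from 250 bases before to 50 after a start, 25 of the 32 genes matched the table with 34 windows, and a GC box on either strand was present in 21 of these 34, against 35.7% of the 32851 windows of all genes. TGACG was in 6 member windows (20.8% of all windows) and the complete element TGACGTCA, which contains it, in 1, that of Syn1 (1.79% of all windows). The EGR1 motif GCGTGGGCG was in 1 window, of Unc13a (0.612% of all), and the TATA box TATAAA in 2 windows of Sv2b (13.6% of all). Median GC content was 62.2% in the member windows and 52.7% in all windows. These are matches of letters, and the GC box was found in windows of genes with higher and with lower ratios.

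The vehicle library held 14924 barcodes and 76891692 UMIs and the fluconazole library 12637 barcodes and 78380009 UMIs. After filters on genes, mitochondrial share and doublets, 12929 and 10614 barcodes remained, with medians of 4332 and 5259 UMIs, and 45 barcode sequences occurred in both libraries, 30 of them among the kept barcodes. Clusters made without the 32 genes were named from marker genes, each name meaning "like" that type. Interneuron subclasses carry the name of a marker gene (Pvalb, Sst, Vip, Lamp5, Sncg) and projection neurons that of their layer and target. The namesake was not always among the markers found. Sncg itself was at 6.85 and 4.14 CPM in Sncg neurons. A Pvalb subcluster of 95 barcodes was named without Pvalb, and an Sst subcluster of 96 without Sst. The smallest subclasses are Sncg (32 and 32 barcodes) and Lamp5 (47 and 32). The class sums hold 1769 vehicle and 1452 fluconazole glutamatergic neurons, 353 and 289 GABAergic neurons, 256 and 166 striatal spiny neurons, and 520 and 244 neuroblasts. Striatal spiny neurons and neuroblasts are not cells of the prefrontal cortex and were present in both libraries. Of the glutamatergic neurons 951, including 17 barcodes of 1 subcluster found in the vehicle library alone, are in no named subclass. With 1 library per treatment no test is possible: every ratio below compares 2 libraries, and the 95% intervals (exact Poisson for a level, exact conditional binomial for a ratio, Clopper-Pearson for a share) cover counting error only. Levels are UMIs scaled to a common total of the class or subclass (CPM), and levels are compared across cells within a gene, not between genes.

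Across 13 neuron subclasses, the release machinery combined broadly used genes with genes that marked 1 or a few subclasses. For 9 of the 32 members the highest subclass was the same in both libraries and at least 2-fold above the median of the other subclasses in each. In barcodes thinned to 2000 UMIs, 4 of the 9 kept this (Stx1a, Cplx2, Rims1 and Unc13b). The highest subclass was the same in both libraries for 16 members at any fold. Over the 13 subclasses, the median Pearson correlation of a member's log2(CPM + 1) between the libraries was 0.90, from -0.14 for Vamp2 to 0.98, a description over subclasses that share a library each. The 4 members Stx1a, Syt7, Sv2b and Unc13b were higher in every glutamatergic than in every GABAergic subclass in both libraries, and 0 members showed the opposite order. For Unc13b the vehicle margin was narrow, with 114 CPM in the lowest glutamatergic and 107 CPM in the highest GABAergic subclass. The shares of all genes that meet these subclass rules were not counted, so these numbers describe the members alone.

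**Figure D1:**
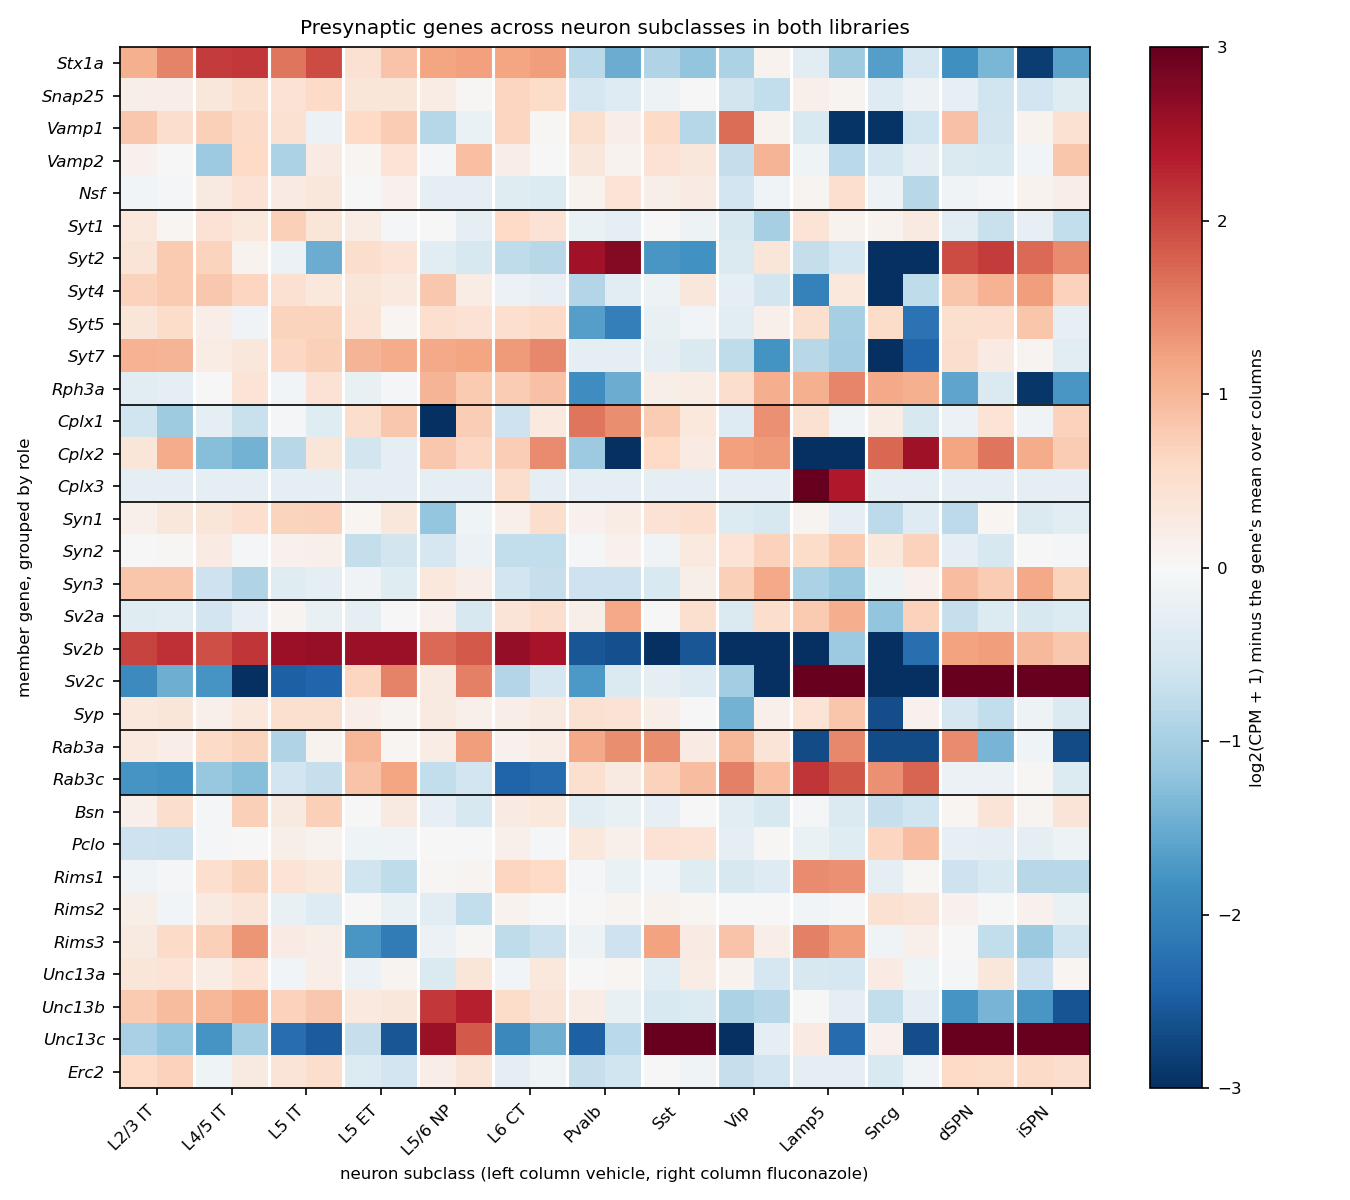
Heat map of the 32 members (rows, grouped by role) in 13 neuron subclasses, with the vehicle library in the left and the fluconazole library in the right column of each pair; color is log2(CPM + 1) minus the gene's mean over all columns. Sv2b, Stx1a and Syt7 were high across the 6 glutamatergic subclasses, while Unc13c, Sv2c and Syt2 stood out in a few subclasses.

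Among the SNARE proteins, Stx1a (syntaxin-1A, the plasma membrane SNARE) was at 106 CPM in vehicle and 107 CPM in fluconazole L4/5 IT neurons, the intratelencephalic projection neurons of the middle layers. In the 5 GABAergic subclasses it ranged from 6.85 to 18.5 CPM in the vehicle library and from 7.90 to 25.6 CPM in the fluconazole library, below all glutamatergic subclasses. Snap25, its partner on the plasma membrane, varied less: its highest subclass was 1.54-fold (vehicle) and 1.47-fold (fluconazole) above the median of the others. Vamp2, the main vesicle SNARE of the forebrain, was low everywhere in these 3′ counts, at 11.0 and 11.6 CPM in glutamatergic neurons against 35.8 and 40.0 CPM in endothelial cells and 30.4 and 31.7 CPM in microglia. A Vamp2 UMI was found in 8.37% of vehicle glutamatergic neurons (148 of 1769, 95% interval 7.12 to 9.75%) and in 13.5% of vehicle microglia, at median depths of 7482 and 4595 UMIs, and after thinning to 2000 UMIs in 2.22% and 5.92%. The neuronal level of Vamp2 was thus below that of both non-neuronal classes, and the part of free RNA in it was not measured for the gene itself. Rab3a was likewise lower in glutamatergic neurons, at 6.93 and 6.99 CPM, than in endothelial cells, at 16.1 and 14.5 CPM.

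The calcium sensors split by subclass. Syt2, the fast sensor, reached 52.7 CPM in vehicle and 61.6 CPM in fluconazole Pvalb neurons, the fast-spiking interneurons. It was next highest in direct-pathway spiny neurons (dSPN) at 35.4 and 38.9 CPM, and Sst neurons, another interneuron class, had 1.77 and 1.65 CPM. The Pvalb and dSPN intervals overlapped in both libraries. Syt7, a slow, high-affinity sensor, was highest in L6 corticothalamic (CT) neurons at 225 and 250 CPM, with L5/6 near-projecting (NP) neurons next at 202 and 208 CPM. Sncg neurons had the lowest Syt7 level at 6.85 and 16.6 CPM. Syt1, the main sensor of forebrain synapses, was found in all subclasses, between 2483 and 5692 CPM in the vehicle library and between 1750 and 4726 CPM in the fluconazole library, with Vip neurons lowest in both. Rph3a (rabphilin, a Rab3 effector that binds SNAREs) was 26.3 and 34.7 CPM in Pvalb neurons and 208 and 274 CPM in Lamp5 neurons, the neurogliaform type.

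Each complexin was highest in another interneuron subclass. Cplx1 was highest in Pvalb neurons (74.0 and 63.2 CPM), although in the fluconazole library Vip neurons had 62.1 CPM, nearly the same level. Cplx2 was highest in Sncg neurons at 75.4 and 133 CPM (64 barcodes in all) and had 0 UMIs in Lamp5 neurons of either library, which allows up to 13.9 and 16.4 CPM. Cplx3, known from ribbon synapses and some deep cortical neurons, had 3 vehicle and 1 fluconazole UMIs in Lamp5 neurons. Over all glutamatergic neurons it had 6 and 4 UMIs, so its pattern rests on a handful of molecules.

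Of the vesicle proteins, Sv2b and Sv2c were divided among neuron classes. Sv2b, a vesicle glycoprotein, ranged from 271 to 524 CPM (vehicle) and from 299 to 515 CPM (fluconazole) over the glutamatergic subclasses, and from 0 to 13.2 CPM and 3.65 to 38.3 CPM over the GABAergic ones. Spiny neurons lay between, at 195 and 200 CPM in dSPN and 163 and 146 CPM in iSPN. Sv2c, its paralog of basal ganglia neurons, was 306 and 427 CPM in Lamp5 neurons, 343 and 254 CPM in indirect-pathway spiny neurons (iSPN) and 218 and 203 CPM in dSPN. Which of Lamp5 and iSPN was higher changed between the libraries. In the glutamatergic subclasses Sv2c ran from 1.60 to 21.3 CPM (vehicle) and from 0.758 to 39.9 CPM (fluconazole). Sv2a, the paralog bound by the antiepileptic levetiracetam, and Syp (synaptophysin) had no subclass that was highest in both libraries.

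Rab3c, a vesicle GTPase, was highest in Lamp5 neurons at 964 and 793 CPM and lowest in L6 CT neurons at 40.2 and 43.3 CPM. Among glutamatergic subclasses the L5 extratelencephalic (ET) neurons had most Rab3c, 391 and 494 CPM.

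In the active zone, Rims1 (a scaffold that joins vesicles, calcium channels and Munc13) was 3725 CPM in vehicle and 3621 CPM in fluconazole Lamp5 neurons, 2.83-fold and 2.82-fold above the median of the other subclasses. The Munc13 priming factors were divided among subclasses. Unc13b was highest in L5/6 NP neurons at 401 and 470 CPM, against 186 and 208 CPM in L4/5 IT neurons, the next subclass. Unc13c was 805 and 540 CPM in Sst neurons, 684 and 568 CPM in dSPN and 508 and 460 CPM in iSPN, and 192 and 114 CPM in L5/6 NP neurons. All other subclasses were at or under 37.1 CPM. Unc13a, the main priming factor of cortical synapses, was even by comparison, with its highest subclass 1.37-fold and 1.21-fold above the median of the others. Bsn, Pclo, Rims2 and Erc2 likewise stayed under 2-fold in both libraries.

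**Figure D2:**
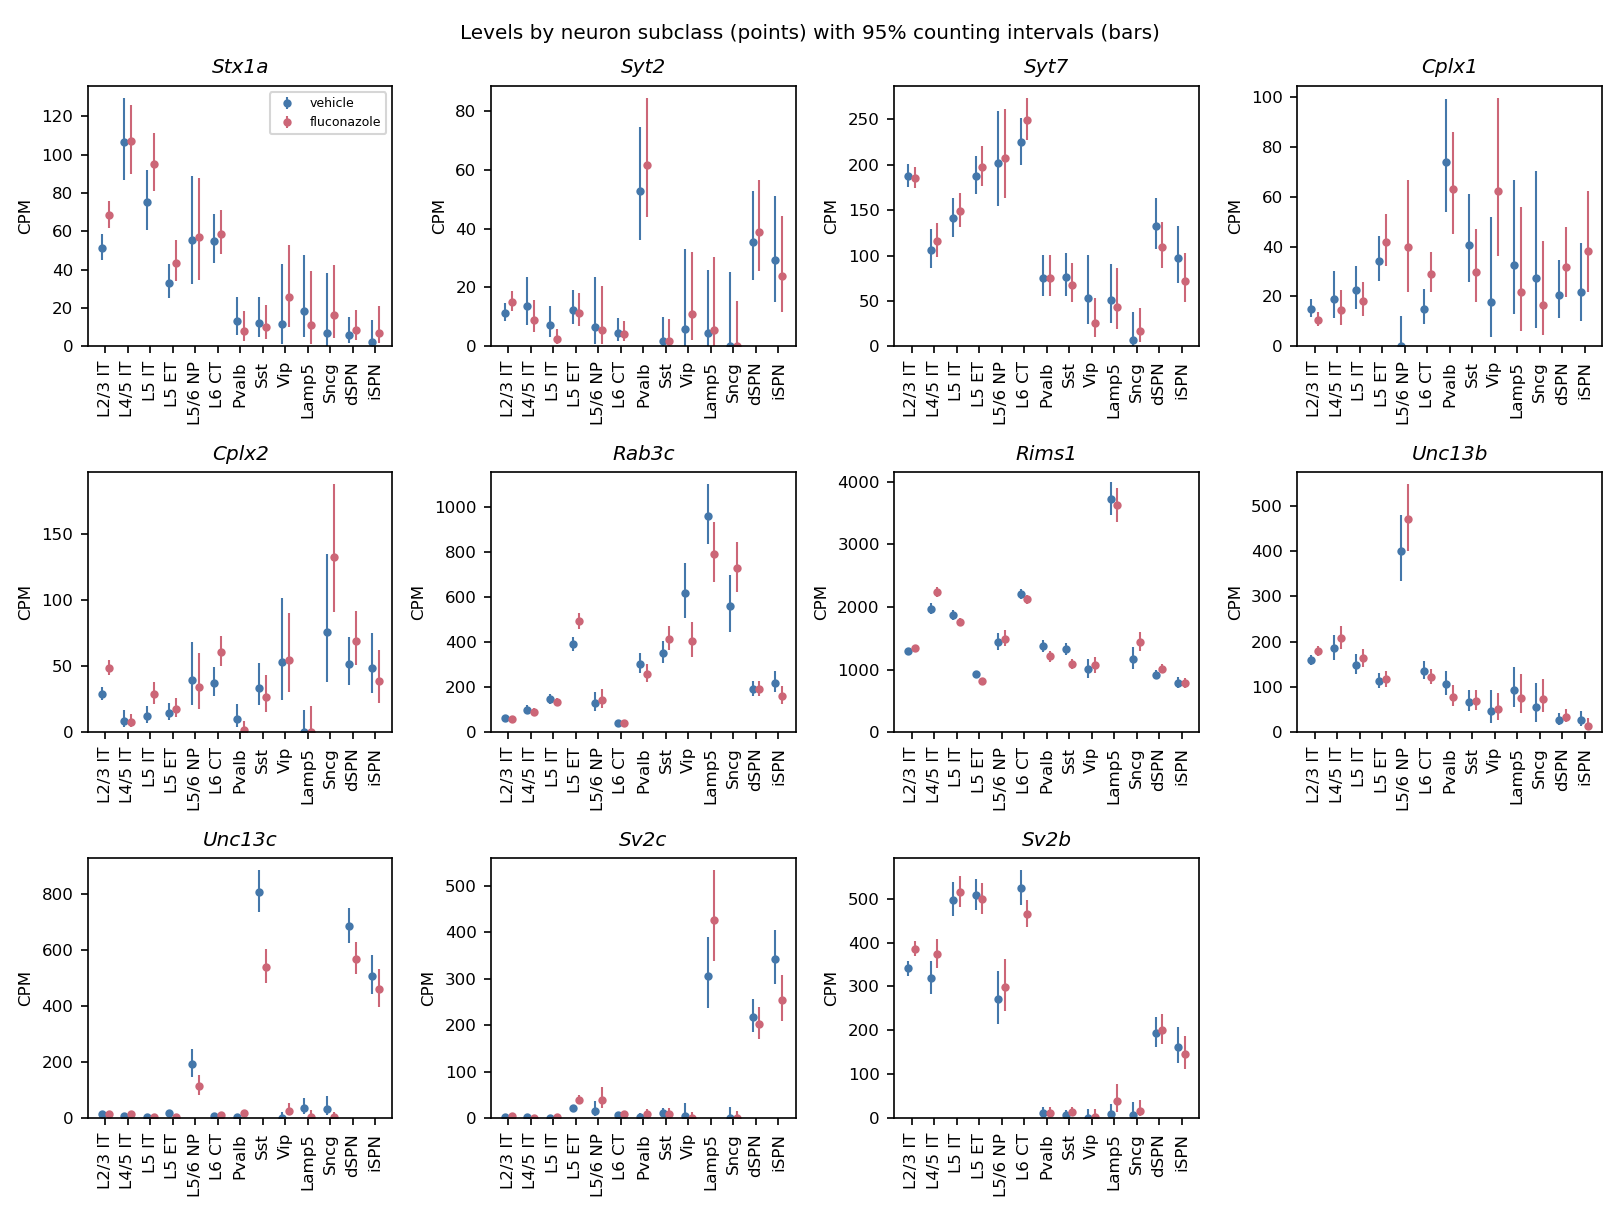
Level in CPM (vertical axis, linear from 0) of 11 members in each of 13 neuron subclasses, vehicle in blue and fluconazole in red, with exact Poisson 95% intervals as bars. Syt2 peaked in Pvalb, Unc13b in L5/6 NP, Rims1 and Rab3c in Lamp5 neurons, while Sv2b separated glutamatergic from GABAergic subclasses.

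Levels in non-neuronal barcodes were set beside those in neurons. In both libraries 17 members were at least 10-fold higher in glutamatergic neurons than in microglia and endothelial cells. At or below the higher of these were 4, namely Vamp2, Rab3a, Unc13b and Unc13c. The shares of all genes in these groups were not counted. Unc13b was at 193 and 217 CPM in endothelial cells but 10.3 and 10.0 CPM in microglia. Unc13c was at 344 and 461 CPM in astrocytes and 102 and 120 CPM in endothelial cells but 3.89 and 3.43 CPM in microglia, so the levels of these genes differed widely between non-neuronal classes. Sv2a was higher in oligodendrocytes, 246 and 235 CPM, than in any neuron subclass.

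**Figure D3:**
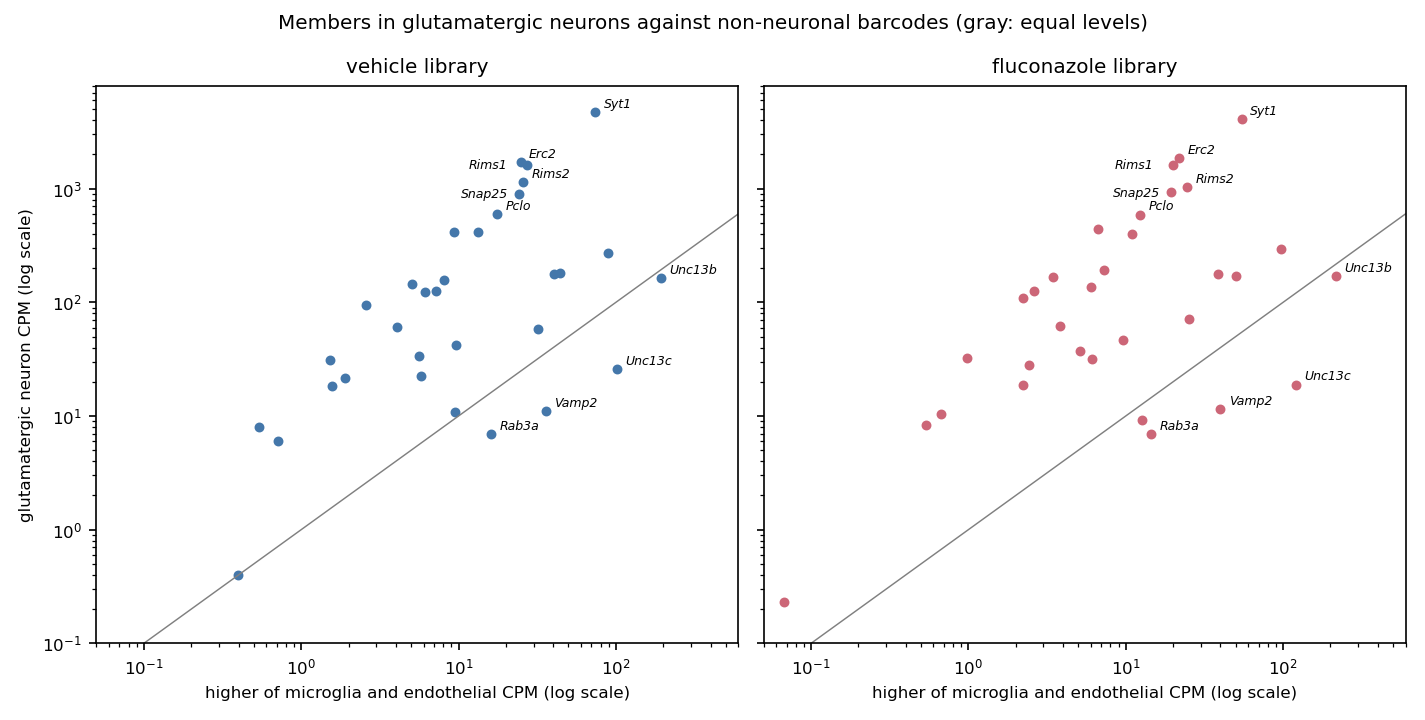
Each point is a member: its CPM in glutamatergic neurons (vertical, log scale) against the higher of its CPM in microglia and endothelial cells (horizontal, log scale), vehicle library left, fluconazole library right; the gray line marks equal levels. Syt1, Erc2 and Rims1 lie far above the line, and Vamp2, Rab3a, Unc13b and Unc13c lie below it in both libraries.

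In glutamatergic neurons the 2 libraries had similar levels of most release genes, with 6 exceptions. Summed over both libraries, 31 members reached 100 UMIs. Of these, 5 were at least 1.2-fold higher in the fluconazole library (9.20% of all 13230 measured genes were) and 1 was at least 1.2-fold lower (15.4% of all genes). The remaining 25 lay between. With a minimum of 500 UMIs, 4 of 26 members were higher (7.54% of all genes with that many) and 1 lower (8.55%). In barcodes thinned to 2000 UMIs, 26 members reached 100 UMIs, and the members past 1.2-fold were partly other genes. Stx1a, Cplx1, Cplx2, Bsn and Rims3 were higher (13.1% of all genes measured there), and Syt4 and Syn3, not Unc13c, were lower (14.2%). The thinned intervals of Cplx1 (-0.19 to 0.90), Rims3 (-0.13 to 0.77) and Syt4 (-0.79 to 0.03) held 0. With equal weight for each subclass, Vamp2, Cplx2, Syn1, Bsn and Unc13a were higher and Syt2 and Unc13c lower. The share of all genes was not counted for this weighting. Cplx2 and Bsn were at least 1.2-fold higher in the main setting and in all 11 alternatives. The minimum-count settings among the 11 leave a gene's ratio unchanged. The median log2 ratio of fluconazole over vehicle was 0.06 over the members and -0.03 over all measured genes. Summed over the members, the level was 13356 CPM in vehicle and 12883 CPM in fluconazole neurons, a log2 ratio of -0.05, and Syt1 alone made up 4744 and 4077 CPM of these sums.

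Cplx2, a complexin, was at 22.6 CPM (339 UMIs) in vehicle and 37.6 CPM (646 UMIs) in fluconazole glutamatergic neurons, a log2 ratio of 0.74 (0.54 to 0.93). A Cplx2 UMI was found in 16.1% of the vehicle barcodes (14.4 to 17.9%) and in 31.7% of the fluconazole ones (29.4 to 34.2%), whose median depths were 7482 and 10630 UMIs. After thinning each barcode to 2000 UMIs the shares were 5.13% (4.14 to 6.26%) and 7.49% (6.18 to 8.97%), against 0.421% and 0.467% in microglia thinned alike. The higher level was found in L2/3 IT neurons (28.7 and 48.6 CPM), L5 IT neurons (a log2 ratio of 1.25) and L6 CT neurons (37.2 and 60.4 CPM), whose intervals left out 0, but not in L4/5 IT neurons (8.51 and 7.58 CPM) or L5/6 NP neurons (39.1 and 34.2 CPM), whose intervals were wide.

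Bsn, the scaffold bassoon, was at 157 CPM in vehicle and 194 CPM in fluconazole neurons, a log2 ratio of 0.31 (0.23 to 0.38). It was higher in 5 of the 6 glutamatergic subclasses, with intervals above 0 in 4, and had a log2 ratio of -0.24 in L5/6 NP neurons. Stx1a was at 58.1 and 71.8 CPM, a log2 ratio of 0.31 (0.18 to 0.43). Its ratio was positive in all 6 subclasses, with an interval above 0 in L2/3 IT neurons (51.5 and 68.5 CPM) only. With equal weight for each subclass the Stx1a ratio was 0.21, under 1.2-fold. Rims3, a short RIM without the Rab3-binding part, was at 21.5 and 28.1 CPM, a log2 ratio of 0.39 (0.18 to 0.59). With equal weight for each subclass the Rims3 ratio was 0.13, also under 1.2-fold, and it was -0.42 in L5 ET neurons.

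Sv2c was at 6.07 CPM (91 UMIs) and 10.4 CPM (178 UMIs), a log2 ratio of 0.77 (0.40 to 1.15). In L5 ET neurons it was at 21.3 and 39.2 CPM and in L5/6 NP neurons at 16.3 and 39.9 CPM, on 5 and 14 UMIs. Its interval was above 0 in 1 of the 6 glutamatergic subclasses, and its level was near 0 in the IT subclasses. An unnamed glutamatergic subcluster had 4 and 23 Sv2c UMIs, at 3.52 and 14.9 CPM. With equal weight for each subclass the Sv2c ratio was 0.21, under 1.2-fold. After subtraction of the estimated free RNA it was 0.90. In spiny neurons Sv2c was at 263 and 215 CPM, the opposite order of the libraries.

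Unc13c was at 25.9 CPM in vehicle and 18.9 CPM in fluconazole glutamatergic neurons, a log2 ratio of -0.45 (-0.67 to -0.23). Among the named subclasses, the lower level was found in L5 ET neurons (18.9 and 4.43 CPM) and L5/6 NP neurons (192 and 114 CPM). L4/5 IT neurons (8.51 and 15.2 CPM) and L6 CT neurons (7.44 and 10.7 CPM) had higher values in fluconazole with intervals that held 0. In barcodes thinned to 2000 UMIs, which give each barcode the same weight and kept 1756 of the 1769 vehicle and 1442 of the 1452 fluconazole neurons, Unc13c had 90 and 76 UMIs and a log2 ratio of 0.04 (-0.42 to 0.50). The glutamatergic subcluster with the most Unc13c UMIs, 116 and 96, is unnamed and also had a lower level in fluconazole. It held 149 vehicle and 129 fluconazole barcodes, at 102 and 62.1 CPM. Another unnamed subcluster, with 76 vehicle and 19 fluconazole barcodes, had 59.6 and 135 CPM. An unnamed subcluster with 17 vehicle and 0 fluconazole barcodes had 110 CPM.

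**Figure D4:**
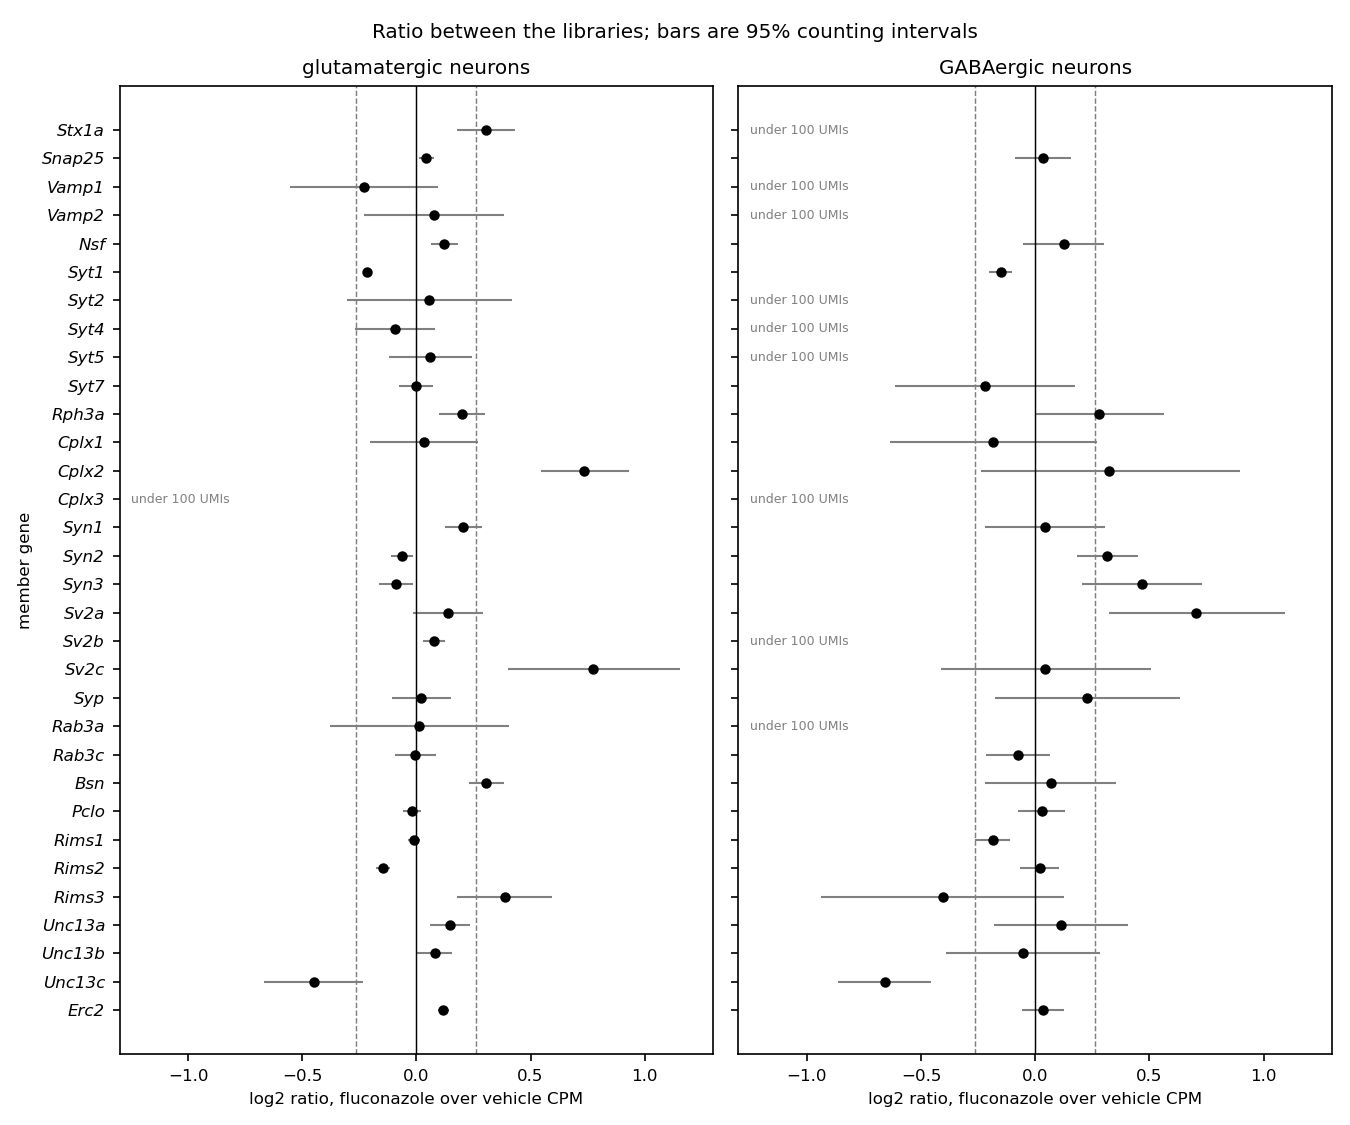
Log2 ratio of fluconazole over vehicle CPM (horizontal axis) for each member in glutamatergic (left) and GABAergic neurons (right); points are ratios, bars exact 95% counting intervals, dashed lines 1.2-fold, and members under 100 UMIs carry no point. In glutamatergic neurons Cplx2 (0.74) and Sv2c (0.77) lie farthest to the right and Unc13c (-0.45) farthest to the left.

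Some members had ratios under 1.2-fold with narrow intervals, since they had many UMIs. Syt1 was at 4744 and 4077 CPM, a log2 ratio of -0.22 (-0.23 to -0.20), and its ratio was negative in all 6 glutamatergic subclasses, the single member of which this was so. Rims2 had a log2 ratio of -0.15 (-0.18 to -0.12) and Erc2, a scaffold of the active zone, 0.12 (0.09 to 0.14). Besides Stx1a, positive ratios in all 6 subclasses were found for Syn1 (synapsin I, which clusters vesicles; 145 and 168 CPM) and Unc13a (123 and 136 CPM). The synapsins were mixed: Syn2 was at 418 and 400 CPM and Syn3 at 181 and 170 CPM. Thinned to 2000 UMIs per barcode, the Syn3 log2 ratio was -0.31 (-0.49 to -0.14). The ATPase Nsf was at 271 and 295 CPM, a log2 ratio of 0.12. Vamp1, a vesicle SNARE, had 162 and 158 UMIs and a log2 ratio of -0.23 (-0.56 to 0.09), the lowest of the 25 members between the thresholds, and Syn1 had the highest at 0.21. The synaptotagmins Syt4 (34.1 and 31.9 CPM) and Syt5 (31.0 and 32.3 CPM) had log2 ratios of -0.09 and 0.06, and thinning gave Syt4 a log2 ratio of -0.37 (-0.79 to 0.03). The Rab3 genes, Pclo, Rims1 and Syt7 had log2 ratios between -0.02 and 0.01.

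**Figure D5:**
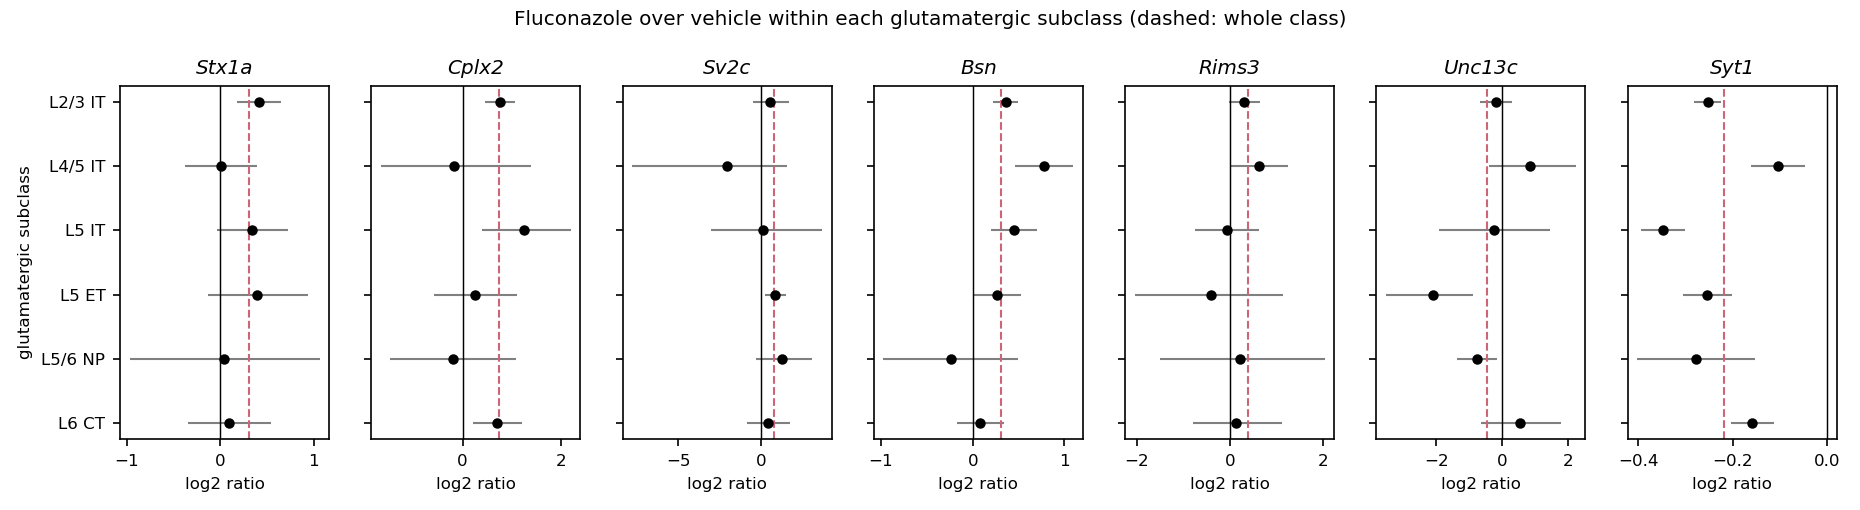
Log2 ratio of fluconazole over vehicle CPM (horizontal axis, a scale of its own for each gene) within each of 6 glutamatergic subclasses for 7 members; bars are exact 95% counting intervals, solid lines mark 0 and dashed lines the ratio of the whole class. Syt1 lies left of 0 in all 6 subclasses, while Unc13c and Rims3 have subclasses on both sides.

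In GABAergic neurons, 23 members reached 100 UMIs, of which 5 were at least 1.2-fold higher in the fluconazole library (11.9% of all 5724 measured genes) and 2 lower (13.5% of all). The median log2 ratio was 0.04 over the members and -0.01 over all measured genes. With a minimum of 500 UMIs, 2 of 11 were higher (5.16% of all) and 1 lower (5.32%). In thinned barcodes Rph3a and Syn2 were higher (13.4% of all genes measured there) and Unc13c lower (14.7%). With doublets kept, Syt7 and Rims1 were also lower. With equal weight for each subclass, Rph3a, Syn2, Sv2a, Sv2c and Syp were higher and Cplx2, Rims3 and Unc13c lower. Cplx2 thus changed from higher to lower, and Syn3 was no longer past 1.2-fold. Syn2 was higher and Unc13c lower in the main setting and in all 11 alternatives, of which the minimum counts leave a gene's ratio unchanged. Sv2a was at 51.3 and 83.7 CPM, a log2 ratio of 0.71 (0.32 to 1.10), and was positive in all 5 GABAergic subclasses. Syn3 was at 113 and 156 CPM (log2 ratio 0.47, interval 0.20 to 0.73) and Syn2 at 455 and 566 CPM (0.32, interval 0.18 to 0.45). Rph3a was at 106 and 128 CPM, with an interval (0.00 to 0.56) that barely left out 0. Cplx2, the fifth, was at 26.8 and 33.6 CPM with an interval of -0.24 to 0.90, and Rims3, lower at 38.5 and 29.1 CPM, had one of -0.94 to 0.13. Sv2b had 15 and 34 UMIs, under the minimum of 100, and was at 8.75 and 17.0 CPM. The glutamatergic level of Sv2b was 415 and 438 CPM, and its part in the GABAergic value was not tested.

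Unc13c was at 275 CPM in vehicle and 174 CPM in fluconazole GABAergic neurons, a log2 ratio of -0.66 (-0.86 to -0.46). Nearly all of it came from Sst neurons, where it was 805 and 540 CPM. These were 3 subclusters in different proportions: with 54 vehicle and 42 fluconazole barcodes Unc13c was at 780 and 655 CPM, with 33 and 15 barcodes at 1087 and 934 CPM, and with 9 and 23 barcodes at 17.3 and 180 CPM. The subcluster with little Unc13c thus held more fluconazole than vehicle barcodes, and within it the level was higher in the fluconazole library, on 1 and 35 UMIs.

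Spiny neurons and neuroblasts gave fewer UMIs. In spiny neurons 4 of 20 measured members were at least 1.2-fold higher (15.6% of all measured genes) and 3 lower (19.3%): Rph3a (27.5 and 56.7 CPM), Syn1 (79.2 and 114 CPM), Unc13a (90.5 and 126 CPM) and Bsn (135 and 168 CPM) were higher, and Syt1 (2964 and 2192 CPM), Syt7 (123 and 93.4 CPM) and Sv2c lower. In neuroblasts 1 of 19 was higher (10.5% of all) and 1 lower (14.6%), both with intervals that held 0. Bsn was thus at least 1.2-fold higher in glutamatergic and spiny neurons, and Syt1 had a negative ratio in glutamatergic, GABAergic and spiny neurons, in libraries that these classes share. Bsn was nearly equal in GABAergic neurons, at 109 and 114 CPM. For Syt1, 1 of the 5 GABAergic subclasses had a positive log2 ratio (0.18), with an interval above 0.

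Other genes of vesicle release, a list of 49 that are not among the 32, were counted in the same way. In glutamatergic neurons 46 reached 100 UMIs, 10 were at least 1.2-fold higher (9.20% of all measured genes) and 2 lower (15.4%), and the median log2 ratio was 0.03. The largest ratios were those of Doc2b, a high-affinity calcium sensor (2.20 and 4.14 CPM, 0.91), Syt12 (12.8 and 21.1 CPM, 0.72) and Syngr3, a synaptogyrin of vesicles (10.9 and 15.7 CPM, 0.52). The smallest were those of Rab3il1, an exchange factor for Rab3 (4.40 and 2.97 CPM, -0.57), Rab3d (5.13 and 4.19 CPM, -0.29) and the SNARE Vamp4 (56.5 and 47.4 CPM, -0.25). Doc2b (33 and 71 UMIs), Rab3il1 (66 and 51) and Rab3d (77 and 72) were near the minimum count. The Rab3d interval (-0.78 to 0.19) held 0, and that of Rab3il1 (-1.12 to -0.02) barely left it out.

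Markers of RNA quality and of other cells also differed between the libraries. Of 80 measured ribosomal protein genes 78 had, in glutamatergic neurons, negative log2 ratios, with a median of -0.34 and a summed level of 4252 and 3372 CPM. Positive ratios were found for 7 of 8 nuclear-retained RNAs, with a summed level of 51723 and 58083 CPM. All 8 microglia markers were lower (454 and 369 CPM summed), as were 7 of 8 endothelial markers (349 and 290 CPM). Of 8 astrocyte markers 3 had positive ratios, and their summed level was 553 and 622 CPM, the opposite order; Unc13c was higher in astrocytes than in glutamatergic neurons in both libraries. The estimated share of free RNA was 8.34% in vehicle and 6.92% in fluconazole glutamatergic neurons. In GABAergic neurons 73 of 80 ribosomal protein genes (median -0.37), 6 of 8 microglia markers (median -0.59; 482 and 388 CPM summed) and 8 of 8 endothelial markers (418 and 327 CPM) had negative ratios, 7 of 8 nuclear-retained RNAs had positive ones, and the free RNA estimate was 9.13% and 6.41%. Their part in the ratios of the release genes was not tested, beyond subtracting the free RNA estimate, which left the 6 glutamatergic ratios on their side of 1.2-fold. In GABAergic neurons it left Sv2a, Syn2, Syn3 and Cplx2 higher and Unc13c and Rims3 lower, and took Rph3a under 1.2-fold. By gene span, the 9 members of 30 to 100 kb had a median log2 ratio of 0.20, with 8 positive, the 9 shorter ones, Cplx3 included, 0.02 and the 14 longer ones -0.01, against 0.00, -0.06 and -0.00 for all genes of these spans.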

How the data were processed

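There were 2 libraries, 1 per treatment. The deposited files hold UMI counts per gene and barcode, per the file headers, with no normalization. They were made with Cell Ranger 8.0.1, per the file headers. Per the submitters' processing notes, the tools were Seurat 4.0.0, Cell Ranger 9.0.0 and R 4.0.3, with the mm10 build. The annotation, intron counting and barcode calling are not given in the sources used here. The 32 members, the other lists and the thresholds were chosen with earlier results of these data known.

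Barcodes were kept from 500 genes upward and up to 5% mitochondrial UMIs, and doublets called by Scrublet (scanpy 1.11.5, expected rate 8%) were left out: 574 vehicle (3.85%) and 514 fluconazole (4.07%). Counts were scaled to 10000 and logged; 2000 variable genes per library without the members and the other release genes, 30 components, 15 neighbours and Leiden clustering (leidenalg 0.10.2, resolution 1.0) gave 36 clusters, of which 27 were named. A name needed 3 markers at least 2-fold above other clusters in 10% of barcodes (subclasses 1.5-fold, 5%, and 20 barcodes). Neuron subclusters with at least 3 markers, and about 0.4 of the list, of another class (386 glutamatergic, 167 GABAergic and 129 spiny barcodes) were left out. These naming rules were written with the clusters at hand. Names are rebuilt from markers and may differ from the study's.

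UMIs were summed per class, subclass and library. No test was made. The interval was checked on simulated Poisson counts, the model it assumes, which hold no spread between mice, libraries or barcodes. Members were named where past 1.2-fold in glutamatergic or GABAergic neurons with an interval that leaves out 0, or where the highest subclass was at least 2-fold above the median of the other subclasses in both libraries (18 of 32). The written rule's wording on that median was unclear and was read so. Values for some of the other 14 were added after they were seen. Alternatives were thinning to 2000 UMIs, doublets kept, a stricter barcode filter (1000 genes, 1% mitochondrial), members among the clustering genes, subcluster resolution 1.5, minimum counts, equal subclass weights, median-of-ratios scaling and free RNA subtraction. Scipy 1.17.1, numpy 2.4.6, scikit-learn 1.9.0 and Python 3.11.15 were used.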

Additional observations from a re-analysis of the deposited data

How the results depend on the processing

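No paired analysis was possible because each treatment has 1 library. Leaving out a library was not possible for the same reason. Over the alternatives, 307 of 331 member values in glutamatergic neurons stayed within their counting interval, and 24 lay outside it. Of the 307, the 26 values with a minimum of 500 UMIs and the 31 with no minimum could not move. These settings change which genes are counted and leave a gene's ratio as it is. The sign changed in 23 of the 331, over 14 members. Of the 6 members past 1.2-fold this held for Unc13c alone, at 0.040 in barcodes thinned to 2000 UMIs; among the others Syt2 went from 0.06 to -0.36 and Sv2a from 0.14 to -0.02 with equal subclass weights. Cplx2 ranged from 0.44 to 0.76, Bsn from 0.28 to 0.48, Stx1a from 0.21 to 0.36, Rims3 from 0.13 to 0.41, Sv2c from 0.21 to 0.90 and Unc13c from -0.55 to 0.04. The Sv2c range covers only the 9 alternatives in which it reached the minimum count, so it leaves out thinning. The 1 glutamatergic member at least 1.2-fold lower (Unc13c) became 2 others with thinning (Syt4 and Syn3), 2 with no minimum count (with Cplx3, on 10 UMIs) and 2 with equal subclass weights (with Syt2). In GABAergic neurons the 5 higher members became 2 with thinning and 2 with a minimum of 500 UMIs. With equal subclass weights there were 5, but Sv2c and Syp took the place of Cplx2 and Syn3. The 2 lower members became 1 with thinning, 1 with a minimum of 500, 5 with no minimum and 4 with doublets kept. They became 4 with members among the clustering genes and 3, Cplx2 included, with equal subclass weights. Shares of all genes were counted for the main, thinned and minimum-of-500 settings only. The 9 members marked by a subclass became 4 with thinning, which lost Syt2, Syt7, Cplx1, Cplx3 and Rab3c, and between 7 and 9 under the other alternatives. Thinned and minimum-count settings hold fewer UMIs or genes; for the others the cause was not tested. Keeping mixed subclusters was chosen after seeing the data. Low counts limit Cplx3, Vamp1, Rab3a and the subclasses Sncg, Lamp5 and Vip.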
